A study of Mus musculus with 2 samples.

Results

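The nuclei described here are epiblast nuclei with the most RNA of Nxph1, Kcnh8, Slc35d3, Hs3st5, Grin2b and Nalcn in a 10x multiome library of pooled mouse embryos at embryonic day 7.0. The epiblast is the epithelium that founds the embryo proper, and a multiome library reads nuclear RNA and open chromatin from the same barcode. Barcodes were kept with 3000 to 30000 RNA UMIs (unique molecular identifiers, the molecules counted) and at least 2000 counts in accessibility peaks. Each was scored by the mean of ln(1 + UMIs per 10000) over the 6 genes. The 800 highest scores among barcodes with 0 UMIs of T and Mixl1, transcription factors of the primitive streak and nascent mesoderm, are the members. They were 800 of 11605 barcodes in the depth range, of which 7010 had 0 UMIs of T and Mixl1, and of 15341 barcodes in all.

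The series holds 1 RNA library and 1 accessibility library, which share all 15341 barcodes, and it has no treatment, genotype contrast or second time point. The embryos were dissociated and pooled before nuclei were isolated, so nuclei cannot be assigned to an embryo. With 1 library per assay there is no replicate, no test was made, and every interval below is a 95% interval that covers counting error only. The labels conflict: the titles, the age field and the protocol give E7.0 embryos, while other fields name goblet cells, a section of the small intestine for the RNA library, the distal colon for the accessibility library, and the strain RedMUC298trTg. The goblet and intestine list, at 8.92 CPM in the members (a gene's UMIs scaled to the usual common total of all UMIs of the group), was nearly all Vil1, a microvillus protein, with 81 UMIs. The defining goblet genes Muc2, Tff3, Agr2 and Clca1, and the intestinal keratin Krt20, had 0 UMIs among the members' 9637953.

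At gastrulation the posterior epiblast passes through the primitive streak under Wnt, Nodal and FGF signals and makes mesoderm and endoderm, while the anterior epiblast stays epithelial and goes on to ectoderm. Of the 6 genes that chose the members, 4 are best known from neurons: Nxph1 is a secreted ligand of neurexins, Kcnh8 a voltage-gated potassium channel of the ELK family, Grin2b a glutamate-binding subunit of the NMDA receptor, and Nalcn a sodium leak channel. Slc35d3 belongs to a family of nucleotide sugar transporters, and Hs3st5 adds 3-O-sulfate to heparan sulfate.

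The promoters of the 6 genes are the part of the genome that both assays of the library bear on, so the stretches with and without dense CG dinucleotides are shown first. RefSeq (GRCm38.p6) gave the 250 bases before the start for Nxph1, Kcnh8, Slc35d3, Hs3st5 and Nalcn, and each of these 5 windows overlapped 1 peak of the files. The bases of the window that lie outside the RefSeq extent of the same gene are printed for Kcnh8 and Nalcn. The Kcnh8 window has many CG dinucleotides and the Nalcn window the fewest of the 5. The bases run 5′ to 3′ along the gene's strand with every CG dinucleotide in capitals. The Kcnh8 stretch is chr17:52602459-52602708 on the plus strand, with 20 CG dinucleotides in 250 bases, and the Nalcn stretch is chr14:123627331-123627394 on the minus strand, with 1 in 64 bases.
Kcnh8: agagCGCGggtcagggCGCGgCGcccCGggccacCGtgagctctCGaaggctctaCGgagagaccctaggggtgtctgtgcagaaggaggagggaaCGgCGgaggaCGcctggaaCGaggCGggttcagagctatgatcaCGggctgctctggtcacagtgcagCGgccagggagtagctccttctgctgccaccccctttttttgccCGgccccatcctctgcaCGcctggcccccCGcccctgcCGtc
Nalcn: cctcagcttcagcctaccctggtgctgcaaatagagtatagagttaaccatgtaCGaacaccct
The whole windows had 20 CG dinucleotides for Nxph1, 20 for Kcnh8, 22 for Slc35d3, 8 for Hs3st5 and 2 for Nalcn, against a median of 6 over 32851 RefSeq promoters of that length. GC content was 66.8% for Nxph1, 68.4% for Kcnh8, 65.6% for Slc35d3, 62% for Hs3st5 and 45.2% for Nalcn, against a median of 52.4%. Nalcn was thus the member with few CG dinucleotides. Motifs were searched on both strands in these windows: ATGCAAA (POU factors), CATTGTT (SOX), TAATCC (OTX), AGATAAG (motif of GATA factors), ATCAAAG (TCF and LEF), TCACACC (T-box), GGGCGTG (KLF and SP), CAGCAGG (ZIC), CACCTG (ZEB and SNAI), TGANTCA (AP-1), CATTCC (TEAD) and TGTTTAC (FOX). The Hs3st5 window held 1 CACCTG, a motif present in 17.2% of all promoters, and 1 CATTCC, present in 12.6%. None of the 12 motifs was in the other windows, which says only that these letters were not there.

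The score chose the members, so its values are a description. The member scores ran from 0.499 to 1.42 with a median of 0.671, and the third lowest member had 0.500. Outside, the highest score was 0.499 and the third highest 0.498, so no gap separated members from the rest. Within 0.05 of the lowest member score lay 132 members above it and 184 other nuclei below it. Of 4595 barcodes with a UMI of T or Mixl1, 183 (3.98%) scored above the lowest member and did not meet the condition of 0 UMIs. Without that condition, the 800 highest scores held 650 of the members.

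**Figure D1:**
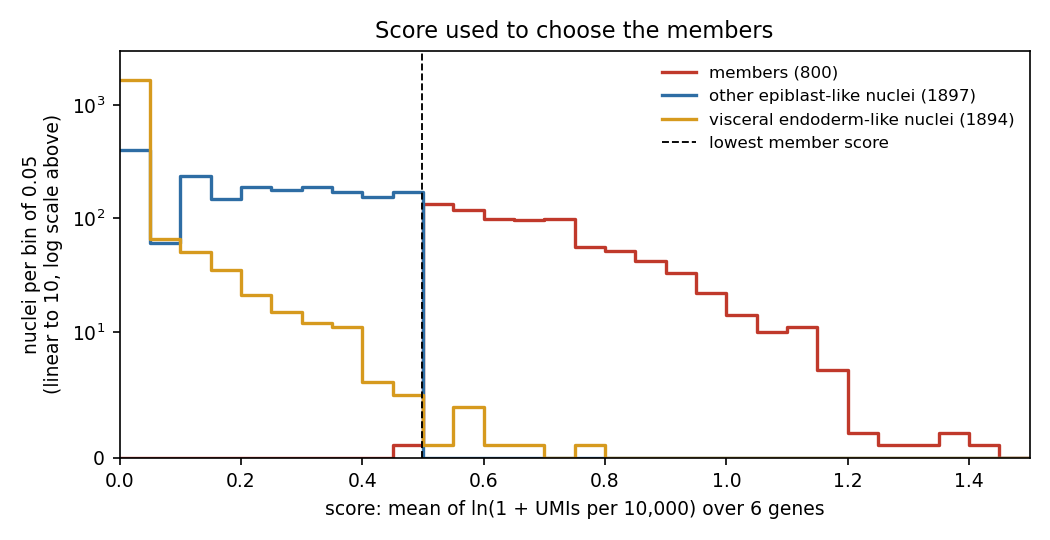
Number of nuclei per score bin of 0.05 (y axis, linear to 10 and logarithmic above) against the score (x axis) for the 800 members, the 1897 other epiblast-like nuclei and the 1894 visceral endoderm-like nuclei; the dashed line is the lowest member score. The members continue the distribution of the other epiblast-like nuclei without a gap, and most visceral endoderm-like nuclei lie at the lowest score.

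Nuclei were clustered by RNA without the 6 genes, T and Mixl1, and clusters were named from marker lists. The largest share of members, 617, lay in RNA cluster 0 of 1531 nuclei, which was epiblast-like by 7 of 8 epiblast markers and had Gria1, Cntnap4 and Cdh9 among its leading genes. Another 98 lay in epiblast-like cluster 4 and 47 in epiblast-like cluster 7, the latter led by Elavl3. The remaining 38 members lay in other clusters: 23 in visceral endoderm-like cluster 12, whose median of 19480.5 UMIs was well above the members' 11058.5, then 6 in an embryonic mesoderm-like and 5 in an extraembryonic ectoderm-like cluster. The label epiblast thus held for 762 of 800 members by RNA. A doublet caller marked 30 members (3.75%), 1.27% of the 1897 other epiblast-like nuclei with 0 UMIs of T and Mixl1, and 6.41% of all other barcodes in range. Some counts, lists and named genes are given without these 38 nuclei as well, and those given only with them may depend on them. Of the 1897 other epiblast-like nuclei, 676 lay in RNA cluster 0.

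In accessibility clusters, built without any RNA, 386 members (48.2%, interval 44.7 to 51.8) lay in cluster 0 and 348 (43.5%, 40.0 to 47.0) in epiblast-like cluster 4. The other epiblast-like nuclei had 50.6% (48.3 to 52.8) in cluster 0 and 32.7% (30.6 to 34.8) in cluster 4. The members therefore had a larger share in cluster 4, which had Ralyl and Ncam2 among its leading genes, by more than counting error. Primitive streak-like accessibility cluster 3 held 4 members and 201 (10.6%) of the other epiblast-like nuclei, beside the condition that both groups had 0 UMIs of T and Mixl1. Cluster 0 stayed unnamed: its 7 raised epiblast markers made epiblast the leading list by the naming rule, but its leading genes held a decidua marker, Dcn, and no epiblast marker. In RNA cluster 7, which took the epiblast name, the immune list had a higher mean ratio than the epiblast list, while that list summed to 18 UMIs in all members and none of its genes reached 20 expected.

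No member had a UMI of fewer than 2 of the 6 genes: 48 had 2 of them, 249 had 3, 306 had 4, 161 had 5 and 36 had all 6. Among the 1897 other epiblast-like nuclei, 402 (21.2%) had none, 547 had 1, 569 had 2 and none had all 6. In the 1894 visceral endoderm-like nuclei, taken as a type that should lack these genes, 87.6% had none at a median depth of 13198.5 UMIs, and 14.8% of these nuclei were marked as doublets. Most other epiblast-like nuclei thus had a UMI of at least 1 of the 6. Their shares with a UMI of each single gene ran from 9.07% for Nxph1 to 39.2% for Hs3st5. The rule had taken the highest scores out of this group, which limits these shares, so they do not describe epiblast-like nuclei as a whole.

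Of the ligand Nxph1 (ENSMUSG00000046178), the members had 943 UMIs, or 97.8 CPM, against 13.6 in the other epiblast-like nuclei, 5.24 in all other barcodes and 2.91 in visceral endoderm-like nuclei. A UMI was found in 312 members (39.0%), in 9.07% of other epiblast-like nuclei and in 1.74% of visceral endoderm-like nuclei. Thinned to 3000 UMIs per nucleus, the shares were 20.4% of members and 3.0% of other epiblast-like nuclei. Its family gave no second member of this kind: the paralogues Nxph2, Nxph3 and Nxph4 had under 20 expected UMIs in the members. The gene of its receptor neurexin 2, Nrxn2, was at 1.16-fold against the other epiblast-like nuclei.

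The potassium channel Kcnh8 (ENSMUSG00000035580) was found in 693 members (86.6%), against 37.5% of other epiblast-like and 5.44% of visceral endoderm-like nuclei. Its level was 265 CPM in members, 68.3 in other epiblast-like nuclei, 23.8 in all other barcodes and 7.90 in visceral endoderm-like nuclei. Of the other channels of the Kcnh family, Kcnh2 was at 1.45-fold (0.85 to 2.43) against the other epiblast-like nuclei, Kcnh6 at 1.23, Kcnh5 at 1.17 (11.5 against 9.80 CPM), Kcnh7 at 1.05 (16.3 against 15.4) and Kcnh4 at 0.86. None of the 5 other family genes with enough counts passed 1.5-fold in that comparison, where 2.48% of all measured genes were higher and 2.17% lower.

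Slc35d3 (ENSMUSG00000050473), the transporter gene, had 95.5 CPM in members, 31.1 in other epiblast-like nuclei and 10.0 in all other barcodes, with a UMI in 60.6%, 23.3% and 8.85% of nuclei. The family genes Slc35d1 (1.14-fold) and Slc35d2 (0.70-fold) did not pass 1.5-fold against the other epiblast-like nuclei. Hs3st5 (ENSMUSG00000044499), the sulfotransferase gene, had 252 CPM in members against 73.8 and 25.5, and a UMI in 84.5% of members. Of its family, Hs3st3b1 was at 4.15 CPM in members, 3.96 in other epiblast-like nuclei and 59.4 in all other barcodes. Against the other epiblast-like nuclei it was at 1.05-fold (0.70 to 1.55), and Hs3st4 at 1.27-fold. Among 22 other heparan sulfate genes with enough counts, none passed 1.5-fold in either direction in that comparison. Of all measured genes there, 2.48% were higher and 2.17% lower. Among the 22 were the polymerase Ext1 (1.07-fold) and the core protein Gpc6 (1.15-fold). With the 762 members in epiblast-like clusters 1 of 22 passed downwards, beside 319 of 12967 measured genes.

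Grin2b (ENSMUSG00000030209), the NMDA receptor subunit gene, had 98.98 CPM in members, 34.0 in other epiblast-like nuclei and 11.1 in all other barcodes, with a UMI in 57.1% of members and 23.6% of other epiblast-like nuclei. The obligatory NMDA receptor subunit Grin1 was low in both, at 3.74 and 5.30 CPM (0.70-fold), while Grin2a was at 23.6 and 15.4 (1.53-fold). Of the other measured subunits, Grin3a was at 0.64-fold (0.33 to 1.16) and Grin2d at 0.75-fold. Of 4 genes, 1 thus passed 1.5-fold upwards and 1 downwards, beside 2.48% and 2.17% of all measured genes. With the 762 members in epiblast-like clusters, 3 were measured, of which 1 passed upwards and 0 downwards. The leak channel Nalcn (ENSMUSG00000000197) had 90.4 CPM in members, 27.8 in other epiblast-like nuclei and 9.08 in all other barcodes, with a UMI in 58.1% and 20.5% of the first pair. Of its known partners, the chaperone-like subunit Fam155a passed 1.5-fold against the other epiblast-like nuclei, at 1.52-fold, beside 2.48% of all measured genes, and Unc79 was at 1.44-fold and Unc80 at 1.41-fold. Together these 3 genes were at 1.46-fold (1.37 to 1.56). Against all other barcodes they were at 2.55-fold (2.42 to 2.69), where all 3 passed 1.5-fold, beside 10.0% of all measured genes. Within RNA cluster 0 alone their sum was at 1.20-fold (1.11 to 1.30) and 0 of 3 passed 1.5-fold, beside 245 of 12488 measured genes upwards. Against all other barcodes, 18.5% of measured genes of 100 to 300 kb and 38.9% of those over 300 kb passed upwards. Against the other epiblast-like nuclei these shares were 5.04% and 13.1%. The part of gene length in the folds of the 3 partners was not tested.

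To measure each gene in nuclei it did not choose, 800 nuclei were chosen again by the other 5 genes, which kept 80.8% to 87.4% of the members. The left-out gene was higher in the chosen nuclei than in the other epiblast-like nuclei for all 6. Nxph1 was at 2.06-fold (1.83 to 2.31), Kcnh8 at 1.95-fold (1.83 to 2.07) and Hs3st5 at 1.80-fold (1.69 to 1.92). Nalcn and Slc35d3 were both at 1.62-fold, and Grin2b at 1.43-fold (1.29 to 1.58). All 6 intervals were above 1, and the folds were well below those of the rule itself. The 6 genes were taken as 1 set with earlier results of these data known, which favoured in advance that each follows the 5 others. These folds are therefore a description. Within RNA cluster 0 alone, a comparison chosen after seeing the data, the same folds were smaller, from 1.45 for Hs3st5 (1.34 to 1.57) and 1.41 for Kcnh8 down to 1.11 for Grin2b (0.98 to 1.25), whose interval includes 1. Median depth in that cluster was 11230 UMIs for the members and 10541 for the other nuclei with 0 UMIs of T and Mixl1, and the part of depth in these folds was not tested.

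**Figure D2:**
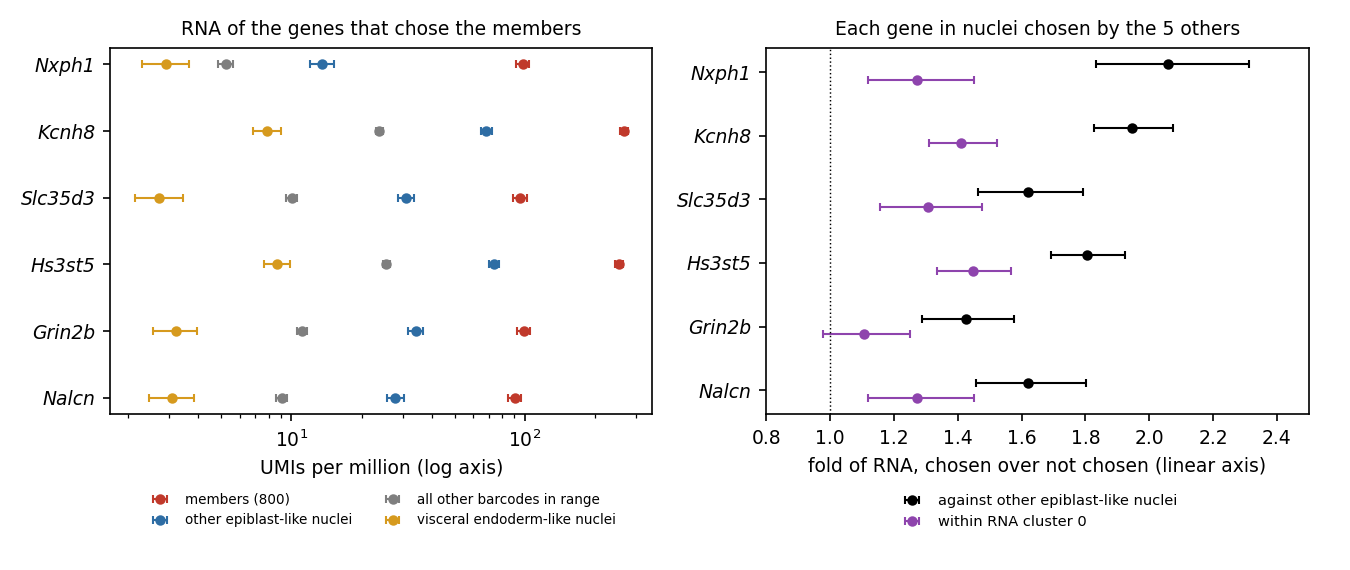
Left, CPM (log x axis) of each of the 6 genes in members, other epiblast-like nuclei, all other barcodes in range and visceral endoderm-like nuclei. Right, fold (linear x axis) of each gene in nuclei chosen by the 5 others, over the other epiblast-like nuclei (black) and within RNA cluster 0 (purple). Bars are 95% counting intervals; on the left the 4 groups keep 1 order for every gene, and on the right the folds lie from 1.43 to 2.06 and from 1.11 to 1.45.

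The RNA of the members was first set against all other barcodes in range. Of 13403 genes with at least 20 expected UMIs in the members, 1347 (10.0%) were at least 1.5-fold higher and 2284 (17.0%) at least 1.5-fold lower, around a median log2 fold of -0.08. The highest outside the rule were Insyn2b at 7.06-fold (5.71 to 8.71), measured only through its UMIs in the members, Gria1, a subunit of the AMPA glutamate receptor, at 7.0-fold (6.0 to 8.15), and Cntnap4, an adhesion protein of the neurexin superfamily, at 6.86-fold (5.98 to 7.85). Others of the highest 8 were the ubiquitin ligase Hecw1 (5.98-fold), March1 (5.45), the diacylglycerol kinase Dgkb (5.38) and Thsd7b (5.32). These levels were low for single genes: Gria1 was at 26.5 CPM in members against 3.78, with a UMI in 168 members (21.0%). These genes were higher against the other epiblast-like nuclei too, by 1.64-fold (Dgkb) to 2.22-fold (Thsd7b), so a part of their fold over all barcodes lay between epiblast and other nuclei.

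Of the epiblast list, 7 of 8 genes were at least 1.5-fold higher than in all other barcodes, beside 10.0% of all measured genes, and the sum of the list was at 2.11-fold (2.09 to 2.14). Against the other epiblast-like nuclei none of the 8 passed 1.5-fold in either direction and the sum was at 1.03-fold. Of all measured genes there, 2.48% were higher and 2.17% lower. Pou5f1, the pluripotency factor also called Oct4, was at 183 against 215 CPM (0.85-fold), and the amino acid transporter Slc7a3 at 346 against 283 (1.22-fold). Between these 2 lay Fgf5 (0.91), L1td1 (0.96), Pim2 (0.97), Sox2 (1.02), Utf1 (1.03) and Dnmt3b (1.06). Genes of formative and primed pluripotency gave 6 of 10 higher against all other barcodes (1.91-fold in sum), beside the same 10.0%. Against the other epiblast-like nuclei 0 of 10 passed 1.5-fold (1.08-fold in sum), beside the same 2.48% and 2.17%, with Lef1 and Pou3f1 both at 1.17-fold. Of the naive pluripotency list, Nanog was lower than in the other epiblast-like nuclei, at 15.7 against 43.0 CPM (0.36-fold). Esrrb (1.54-fold) and Tfcp2l1 (1.5-fold) were past the same threshold upwards, at under 7 CPM. Of the 8 measured genes of that list 2 passed upwards and 1 downwards, beside 2.48% and 2.17% of all measured genes. With the 762 members in epiblast-like clusters no gene of that list passed upwards.

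Of the neuron list, the members had 4 UMIs of Neurod1 and 3 of Neurog2, and of the early neural gene Sox1 3 UMIs. Against all other barcodes 3 of 5 measured neuron genes passed 1.5-fold, beside 10.0% of all measured genes: Stmn2 at 2.90-fold, Map2 at 2.36-fold and Tubb3 at 2.19-fold. Elavl4 was at 1.47-fold and Dcx at 1.12-fold (0.78 to 1.56), and the sum was at 2.29-fold. Against the other epiblast-like nuclei that sum was at 1.12-fold (1.05 to 1.20), with Stmn2 at 1.29, Map2 at 1.11, Tubb3 at 1.06, Elavl4 at 1.02 and Dcx at 0.70. Pax6, a transcription factor of neural progenitors, was past 1.5-fold there at 1.74-fold (1.02 to 2.92), on 29 UMIs in members and 35 in the comparator, and reached 20 expected UMIs only through the members. The sum was at 1.16-fold with the 762 members in epiblast-like clusters, where none of the 5 measured genes passed 1.5-fold. Pax6 did not reach 20 expected UMIs there, so its fold was not counted. Within RNA cluster 0 all 6 measured genes were above 1 and 1 passed 1.5-fold, beside 245 of 12488 measured genes. The sum there was at 1.13-fold (1.04 to 1.23). Rest, a repressor of neuronal genes, was at 155 against 170 CPM (0.91-fold).

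Against the 1897 other epiblast-like nuclei, which also had 0 UMIs of T and Mixl1, far fewer genes differed. Of 13181 genes with enough counts, 327 (2.48%) were at least 1.5-fold higher in members and 286 (2.17%) at least 1.5-fold lower. With the 20 expected UMIs reckoned from the comparator alone, an alternative added after seeing the data, these were 278 and 323. The highest 15 included Il20ra (3.87-fold), Bmp6 (3.63), Abcc2 (3.47), Prdm6 (3.45), Sfmbt2 (3.36), Cubn (2.58), Gpm6a (2.52), Kifc3 (2.43), Gata4 (2.43), Myo5b (2.42), Slco4c1 (2.29), Thsd7b (2.22) and Unc5c (2.21). Il20ra, with 48 UMIs in members and 26 in the comparator, was measured only through its UMIs in the members. Several of these, such as the endocytic receptor Cubn and the transcription factor Gata4, are genes of visceral endoderm. The visceral endoderm list moved with them, at 1.28-fold in sum with 10 of 11 genes above 1. With the 762 members in epiblast-like clusters, a comparison added after seeing the data, that list was at 0.91-fold, and 8 of the 15 genes turned to below 1, among them Abcc2 (0.855), Prdm6 (0.996), Sfmbt2 (0.993), Cubn (0.909), Gata4 (0.894), Myo5b (0.872) and Slco4c1 (0.988). The 38 members outside epiblast-like clusters thus carried those 8 folds. Of the others, Bmp6 was then at 1.25 (0.86 to 1.79), Unc5c at 1.16 (0.83 to 1.62) and Kifc3 at 1.57, while Il20ra was at 3.92.

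Among the 762 members in epiblast-like clusters, 245 genes were at least 1.5-fold higher and 319 lower, and the highest 15 by the same rule were other genes in most places. They included Gpm6a, a neuronal membrane glycoprotein, at 2.62-fold (1.85 to 3.72), the metabotropic glutamate receptor gene Grm7 (1.90), and Hhip, a binding protein of Hedgehog (2.29). They also included the sodium channel gene Scn9a (2.12), the serotonin receptor gene Htr2c (2.09), Gria1 (2.09), Cntnap4 (2.03), and Ntrk2, the receptor of BDNF (1.97). Also among them were Thsd7b (2.20), the atypical cadherin Dchs2 (2.05), Ttyh2 (2.03), Myo3a (2.01), Adamts17 (1.95) and Hecw1 (1.89). Counts were small for most: Gpm6a rested on 74 UMIs, while Ntrk2 had 302 and Hecw1 510. Within RNA cluster 0, the highest 15 by that rule held Gpm6a (2.41-fold), Myo3a (2.23), Hhip (2.17), Scn9a (1.99) and Adamts17 (1.91) of these genes. Gria1, Cntnap4, Ntrk2, Htr2c, Grm7, Dchs2, Ttyh2, Thsd7b and Hecw1 were not among them. Thsd7b was at 1.59-fold there, and Gria1 did not pass 1.5-fold.

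The genes lowest in all 800 members were Htr7 (0.25-fold), Wnt8a (0.27), Id4 (0.28), Cd274 (0.30), Ism2 (0.32), Irx5 (0.33), Fgf17 (0.34), Relt (0.36), Dok3 (0.36) and Foxj1 (0.36), each on 24 UMIs or fewer in the members. Wnt8a, a Wnt ligand of the posterior epiblast and streak, was at 1.14 against 4.26 CPM. With the 762 members the lowest 10 again held Wnt8a (0.26), Htr7 (0.27), Ism2 (0.29), Relt (0.29), Id4 (0.31) and Dok3 (0.32), and added Thnsl2 (0.33), Bmp7 (0.35), Cdh6 (0.36) and Nanog (0.37; 0.31 to 0.44). Within RNA cluster 0 Wnt8a was at 1.04-fold (0.31 to 3.46), too wide at this depth to show a difference or its absence. Id4 was at 0.23-fold there, but with under 20 expected UMIs it did not count as measured in that comparison.

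The streak list was lower in members. T and Mixl1 were held at 0 in both groups by the rule, and of the 7 measured genes of the streak list without them, 4 were at least 1.5-fold lower than in the other epiblast-like nuclei, beside 2.17% of all measured genes, and none was above 1. These were Fgf8 (26.0 against 65.9 CPM, 0.40-fold), Wnt3 (7.78 against 18.2, 0.43), the T-box factor Eomes (38.4 against 72.6, 0.53) and Evx1 (3.01 against 5.10, 0.59). The sum of the list was at 0.53-fold (0.49 to 0.56), at 0.51 with the 762 members and at 0.76 within RNA cluster 0. Against all other barcodes all 8 genes were at least 1.5-fold lower, beside 17.0% of all measured genes, at 0.26-fold in sum. All 4595 barcodes with a UMI of T or Mixl1 are in that group and none is a member by the rule. The rule thus favours lower streak genes in members there, and these values are a description. Of the anterior ectoderm list, which holds Pou3f1 and Otx2, 0 of 5 measured genes passed 1.5-fold against the other epiblast-like nuclei. Of all measured genes there, 2.48% were higher and 2.17% lower. The sum of that list was at 1.12-fold (1.09 to 1.15), at 1.15 with the 762 members and at 1.03 (0.997 to 1.07) within RNA cluster 0.

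Of the Nodal pathway, 4 of 13 measured genes were at least 1.5-fold lower than in the other epiblast-like nuclei and none was above 1. Among the 4 were the ligand Nodal (19.3 against 36.4 CPM, 0.53-fold), its co-receptor Tdgf1 (73.3 against 118, 0.62) and the antagonist Lefty2 (0.66). The receptors and transducers were near 1, with Acvr2b, Smad2 and Smad4 at 0.96, 0.95 and 0.98. Of the Wnt pathway, 4 of 14 were lower: the ligands Wnt8a (0.27) and Wnt3 (0.43), and the feedback genes Axin2 (14.3 against 30.6, 0.47) and Nkd1 (0.60). The median log2 fold of the Wnt list was -0.47 while its sum was at 1.02-fold, because the abundant Lef1, at 522 against 446 CPM, went the other way. Of the BMP pathway 2 of 13 were lower, Bmp7 (0.65, and 0.35 with the 762 members) and the target Id1 (65.0 against 122, 0.53), and of the FGF pathway 2 of 13, Fgf8 and Fgf4 (0.61). These counts of lower genes stand beside 2.17% of all genes measured in this comparison. The medians of the lists stand beside a median log2 fold of -0.01 over the same genes. With the 762 members the Wnt count was 6 of 14, beside 319 of 12967 measured genes, and the Nodal, BMP and FGF counts did not change. Within RNA cluster 0 the lower genes were 2 of 13 for Nodal, 1 of 12 for Wnt, 1 of 12 for BMP and 2 of 13 for FGF. There, 208 of 12488 measured genes were lower.

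The summed RNA of glutamate receptor genes other than the NMDA subunits was higher in members. All 10 measured AMPA, kainate and delta receptor genes were above 1 against the other epiblast-like nuclei, but only Gria1 (2.10-fold) and Grik2 (1.59) passed 1.5-fold, beside 2.48% of all measured genes, and the sum was at 1.24-fold (1.21 to 1.28). The most abundant by UMIs, Gria4 (308 against 250 CPM) and Grik3 (203 against 166), were at 1.23 and 1.22. Against all other barcodes, 8 of 10 passed 1.5-fold upwards and 1 downwards, beside 10.0% and 17.0% of all measured genes and 38.9% upwards of those over 300 kb, and the sum was at 2.40-fold. Of 39 long genes of synapses and adhesion, 33 were above 1 and 8 past 1.5-fold against the other epiblast-like nuclei, among them Dpp6 (1.59), Ptprt (1.73), Tenm2 (1.73) and Sorcs1 (1.63). The median log2 fold was 0.29 for that list and 0.30 for the glutamate receptor list. Both were close to the 0.27 of all measured genes over 300 kb, of which 13.1% were past 1.5-fold upwards. With the 762 members 3 of 10 glutamate receptor genes and 7 of 39 long genes passed upwards, beside 245 of 12967 measured genes. Within RNA cluster 0 these were 0 of 10 and 3 of 37, beside 245 of 12488. The sums there were at 1.18-fold (1.14 to 1.23) and 1.14-fold (1.13 to 1.16).

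Replication genes were slightly lower in members: 1 of 22 S phase genes was above 1 against the other epiblast-like nuclei, the sum was at 0.86-fold (0.85 to 0.87), and Cdc6 (0.59) and the cyclin gene Ccne2 (0.62) passed 1.5-fold downwards, beside 2.17% of all measured genes. Of 20 genes of G2 and M phase, 17 were above 1 and none passed 1.5-fold, with a sum at 1.07-fold. Against all other barcodes both lists were near level, at 1.03 and 1.05. Both sums kept their side of 1 with the 762 members, at 0.87 and 1.07. Within RNA cluster 0 they were at 0.94 (0.93 to 0.96) and 1.01 (0.99 to 1.03).

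**Figure D3:**
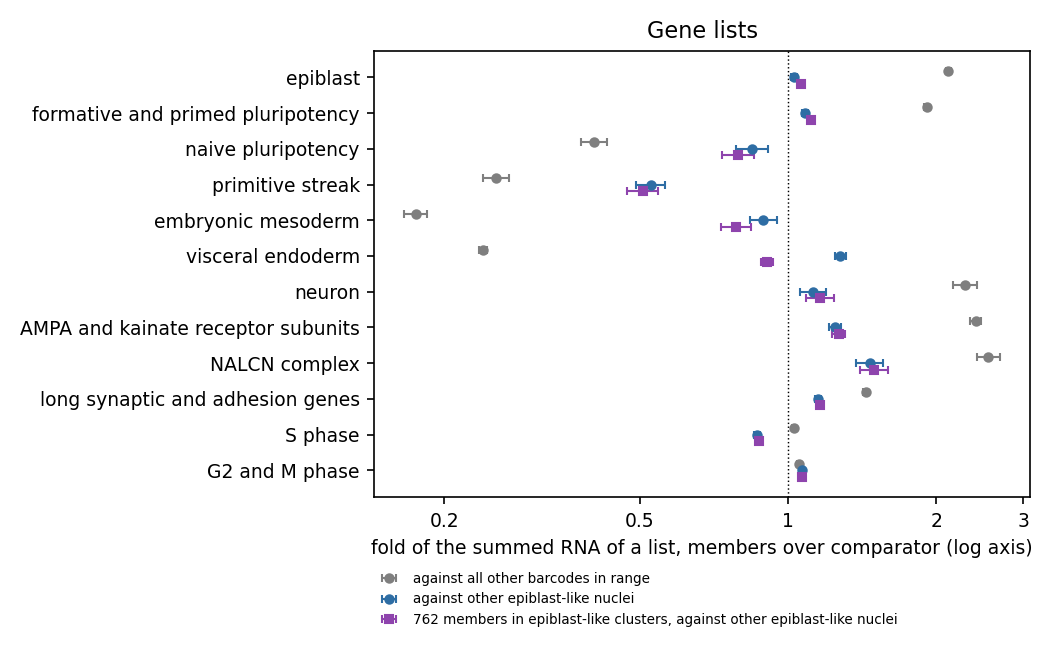
Fold of the summed RNA of 12 gene lists (log x axis), members over all other barcodes in range (grey), members over the other epiblast-like nuclei (blue), and the 762 members in epiblast-like clusters over the other epiblast-like nuclei (purple); bars are 95% counting intervals. Against other epiblast-like nuclei the streak list is lowest (0.53) and the NALCN complex list highest (1.46), and the visceral endoderm list changes side, from 1.28 to 0.91, without the 38 members outside epiblast-like clusters.

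Gene length moved with the difference. Genes over 300 kb were at least 1.5-fold higher than in all other barcodes in 38.9% of cases, against 5.58% of genes under 20 kb. Against the other epiblast-like nuclei the shares were 13.1% and 1.15%, and the median length was 86.0 kb for the higher genes and 26.2 kb for all measured. A length was known for 95.2% of genes in this comparison and 95.3% in the other. The part of length in the folds above was not tested.

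Promoter accessibility, which the rule did not use, was read as counts in the peaks within 1000 bp of a start of each gene. All 6 genes had more accessible promoters in members than in all other barcodes and than in visceral endoderm-like nuclei. Kcnh8 stood out: 27.6 CPM of peak counts in members, 9.57 in all other barcodes (2.89-fold; 2.51 to 3.31) and 3.14 in visceral endoderm-like nuclei (8.80-fold; 6.69 to 11.7). The folds over all other barcodes were 1.89 for Nalcn (1.65 to 2.17), 1.63 for Grin2b, 1.58 for Slc35d3, 1.54 for Hs3st5 and 1.38 for Nxph1 (1.20 to 1.58). Kcnh8 and Nalcn, whose stretches are printed above, thus had the 2 highest folds, which are counts over whole peaks and not over the printed bases. The Kcnh8 stretch lies inside its peak over the start, while the Nalcn stretch lies outside the Nalcn promoter peak, chr14:123626347-123627289, which the rest of that window overlaps.

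Against the other epiblast-like nuclei, only the Kcnh8 promoter differed by more than counting error. The RNA folds of each gene in nuclei chosen by the other 5 genes, a description as stated above, were 1.43 to 2.06. Kcnh8 was at 27.6 against 22.2 CPM of peak counts (1.25-fold; 1.06 to 1.46), with the higher level in the peak over the start itself, at 1.29-fold (1.09 to 1.54). Nalcn was at 25.8 against 22.1 (1.17-fold), with an interval of 0.99 to 1.37 that includes 1. Nxph1, with the largest RNA fold, was at 23.3 against 26.5, or 0.88-fold (0.75 to 1.03). Slc35d3 at 1.06, Hs3st5 at 1.01 and Grin2b at 1.01 also had intervals that include 1, so a difference in these 5 promoters was not detectable at this depth. The Nalcn promoter was at 1.20-fold (1.01 to 1.41) and Kcnh8 at 1.26 (1.07 to 1.48) with the 762 members, and the 4 other intervals included 1. Peaks over the gene body were at 1.26-fold for Kcnh8 (1.03 to 1.55), 1.08 for Nxph1 and Hs3st5, 0.99 for Grin2b and 0.89 for Nalcn.

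**Figure D4:**
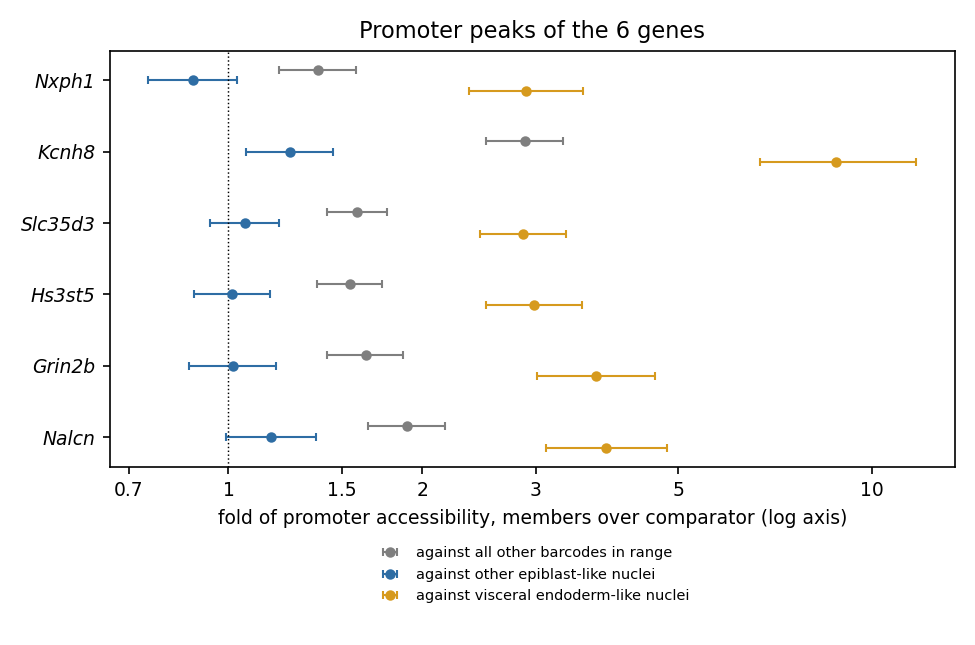
Fold of promoter accessibility (log x axis) of the 6 genes, members over all other barcodes in range (grey), over the other epiblast-like nuclei (blue) and over visceral endoderm-like nuclei (yellow); bars are 95% counting intervals. All 12 grey and yellow points lie above 1, from 1.38 to 8.80, while of the blue points only Kcnh8, at 1.25, has an interval above 1.

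Of the distal peaks near the 6 genes, that at chr10:19891595-19892519 (mm10), 40.6 kb upstream of Slc35d3, was at 20.8 CPM of peak counts in members and 15 in other epiblast-like nuclei (1.39-fold; 1.15 to 1.68), and at 3.88-fold over all other barcodes. Inside Grin2b, chr6:135919928-135920832, 253 kb from the start, was at 1.26-fold (1.01 to 1.55) and chr6:136149795-136150801, 23.2 kb from the start, at 1.31-fold (1.0 to 1.70). These 2 were at 3.96-fold and 3.75-fold over all other barcodes, so they were open in epiblast as a whole. Of the 8 measured peaks over the Grin2b body 3 were above 1, with a median of 0.80, and chr6:136113389-136114198 was the 1 past 1.5-fold, at 0.48-fold (0.24 to 0.88). The peak at chr10:36484516-36485392, 21.9 kb upstream of Hs3st5, was at 1.68-fold (1.12 to 2.51) on few counts. These peaks were picked from all those near the 6 genes after their values were seen.

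Promoters were also read for genes chosen by RNA. Genes at least 1.5-fold higher in RNA than in all other barcodes had a median promoter fold of 1.23, with 85.2% above 1, against 0.956 and 35.8% over all measured genes. Genes at least 1.5-fold higher than in the other epiblast-like nuclei had a median promoter fold of 1.01, with 55.7% above 1, against 1.01 and 53.9% over all measured genes; this set includes genes whose fold rests on the 38 members outside epiblast-like clusters. Genes at least 1.5-fold lower there had a median promoter fold of 0.989, with 42.9% above 1, and their gene bodies without promoters a median of 0.957, with 35.4% above 1 against 50.5% over all measured genes. Single genes were alike: the Gria1 promoter was at 2.18-fold over all other barcodes and 1.03-fold over the other epiblast-like nuclei, Cntnap4 at 2.36 and 1.09, Dgkb at 2.06 and 1.08, and Hecw1 at 2.01 and 1.15.

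Over all peaks with at least 20 expected fragments in the members, 12486 of 86650 (14.4%) were at least 1.5-fold more and 20279 (23.4%) at least 1.5-fold less accessible than in all other barcodes. Against the other epiblast-like nuclei these were 2062 (2.51%) and 3538 (4.31%) of 82114. Of promoter peaks 1.12% passed upwards and 2.07% downwards, and of distal peaks 3.15% and 5.34%, a difference that was not tested. At 50 expected fragments, which fewer peaks reach, the counts over all peaks were 157 and 329. Counting error can take a peak with few fragments past 1.5-fold, and its part in these shares was not tested. The 6 peaks with the lowest fold were nearest to Irx3os (0.18-fold; chr8:91866792-91867685), Cfap61 (0.19; chr2:146098688-146099604), Fto (0.21; chr8:91443563-91444455), Kcnmb4os1 (0.22; chr10:116406696-116407604), Rtp1 (0.23; chr16:23384047-23384912) and Crtam (0.25; chr9:41004281-41005193). Each of the 6 had 10 or fewer fragments in the members and stayed below 0.25-fold with the 762 members.

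The 6 highest peaks were nearest to Pip5k1c (3.38-fold), Mybph (2.86), Tspan18 (2.86), Slc39a11 (2.84), Spred1 (2.69) and Stk3 (2.61). The first 3 were lower in members than in all other barcodes, at 0.34, 0.36 and 0.25, and open in visceral endoderm-like nuclei. With the 762 members these 3 were at 2.54, 2.22 and 1.12. The peak within the span of the Stk3 starts, chr15:35164798-35165397, had 58 fragments in members, 47 in other epiblast-like nuclei and 6 in the larger group of visceral endoderm-like nuclei, and was at 5.90-fold over all other barcodes. Spred1, a Ras pathway inhibitor gene, had its peak 30378 bp away at 3.48-fold over all other barcodes, and it was at 2.61-fold over the other epiblast-like nuclei with the 762 members.

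Named genes were also read along the score among epiblast-like nuclei with 0 UMIs of T and Mixl1. The nuclei were split into 402 nuclei with score 0, 634 up to 0.25, 861 from there to the lowest member, and the 762 members in epiblast-like clusters in 2 parts of 381. The genes higher or lower below were chosen for their difference between members and the rest, so their steps are a description. Gria1 was at 2.83, 10.5, 17.6, 23.3 and 29.4 CPM in this order. Hecw1 was at 14.4 in the first and 62.1 in the last, Cntnap4 at 9.06 and 44.6, and Unc79 at 22.1 and 43.7, each higher at every step. Wnt8a was at 7.08, 6.45, 1.73, 0.67 and 1.57, and Id4 at 4.82 in the first and 0.90 in the last. The streak list was at 292 in the first and 85.7 in the last, and the S phase list at 5394 and 3947. Of the epiblast markers read along the score, the amino acid transporter Slc7a3 was at 220, 265, 317, 361 and 361, Pou5f1 was at 216, 222, 210, 192 and 188, Dnmt3b, the DNA methyltransferase, at 1256, 1542, 1607, 1689 and 1632, and the epiblast list at 2726 in the first step and between 3172 and 3370 in the later ones.

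The Kcnh8 promoter was at 17.9, 19.6, 25.4, 28.1 and 27.8 CPM of peak counts over the same steps and the Nalcn promoter at 18.5, 21.5, 23.8, 27.3 and 25.7. Between the first and last step the intervals of Kcnh8 did not overlap, while those of Nalcn did, as did those of Nxph1 (25.9 first, 22.8 last), Hs3st5 (33.4, 36.0), Slc35d3 (35.0, 38.2) and Grin2b (24.3, 25.3). The share of nuclei in accessibility cluster 4 was 16.9%, 32.6%, 40.1%, 43.6% and 47.8%. Median depth also differed, at 8286.5 UMIs in the first step and 10917 in the last, and it was 9976.5, 10711 and 10951 between them. The median of peak counts per nucleus was 15970.5, 19368, 20970, 21623 and 22080 over the steps. The part of depth in these steps was not tested.

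**Figure D5:**
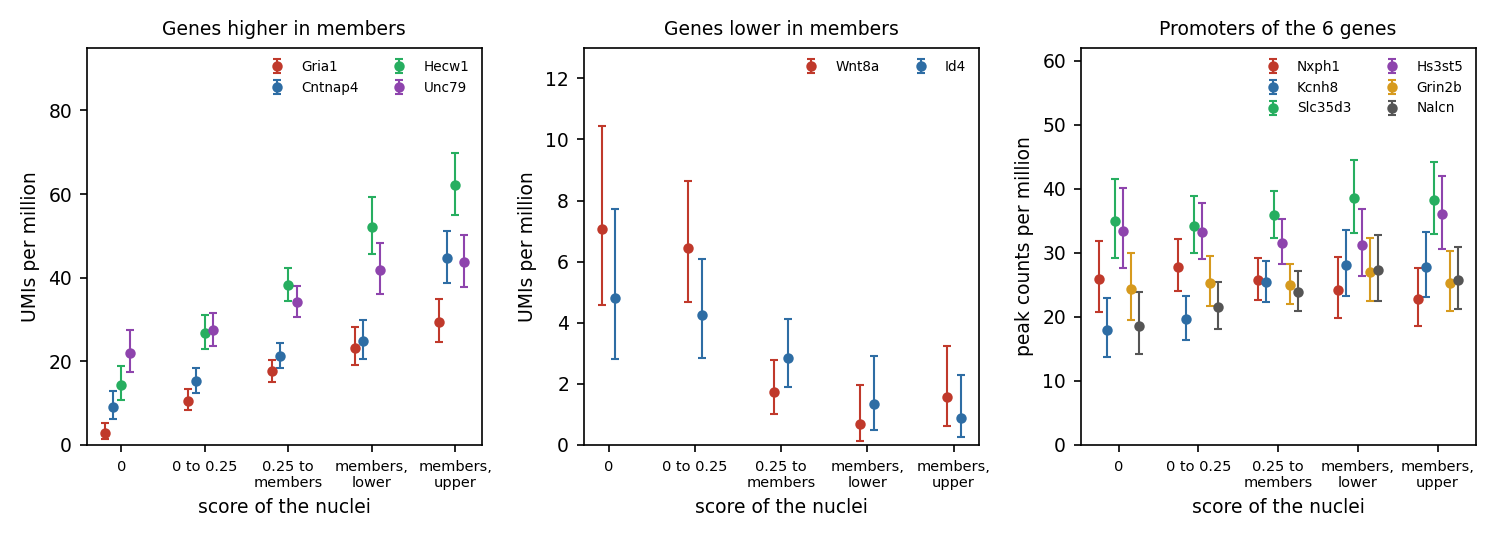
Values over 5 steps of the score among epiblast-like nuclei with 0 UMIs of T and Mixl1 (x axis: 402, 634, 861, 381 and 381 nuclei). Left and middle, CPM of genes higher and lower in members; right, promoter CPM of peak counts of the 6 genes; bars are 95% counting intervals. Gria1 goes from 2.83 to 29.4 CPM, Wnt8a from 7.08 to 1.57, and the Kcnh8 promoter from 17.9 to 27.8 CPM of peak counts.

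The members were set beside the 800 barcodes chosen by the same form of rule on Elavl3 and E2f2. Elavl3 is an RNA-binding protein known from neurons and E2f2 a cell cycle factor. Both sets were drawn from the same 7010 barcodes with 0 UMIs of T and Mixl1, and 195 barcodes were in both. Whether this overlap differs from that of unrelated sets was not tested. The other 605 barcodes chosen by Elavl3 and E2f2 were not members by construction, which limits their Nxph1 (11.7 CPM) and Kcnh8 (62.8 CPM). Elavl3 in the members was at 128 CPM against 136 in the other epiblast-like nuclei (0.94-fold), and E2f2 at 12.7 against 19.9 (0.64-fold; 0.51 to 0.78). The 47 members in RNA cluster 7, which Elavl3 leads, had 210 CPM of Elavl3, against 132 in the 617 members of cluster 0. Of Gria1 they had 2 UMIs, or 4.88 CPM, against 30 (26.2 to 34.2) in cluster 0. Nxph1 itself was at 48.8 in the former and 107 in the latter. Elavl3 and Gria1 are leading genes of these clusters, so these values describe the clusters and compare nothing.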

How the data were processed

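A nuclear RNA and an accessibility library of pooled E7.0 mouse embryos were read as 1 matrix of raw counts deposited by the authors, per gene (UMIs) and per peak, made with Cell Ranger ARC 2.0.0 on mm10, per the submitters' processing notes. The matrix held 15341 barcodes, 32285 genes and 229480 peaks; depth was 1.82202e+08 UMIs and 2.73131e+08 peak counts. Members, gene lists and comparisons were chosen with earlier results of these data known. Groups were summed and compared as CPM, with exact Poisson intervals and conditional binomial intervals of folds, at 95%; PCR duplicates and shared nuclei are not covered. No test was made. Peak counts were halved, rounding up, to estimate fragments. A feature was measured at 20 expected UMIs or fragments in the members and counted as different from 1.5-fold. Nuclei were clustered with Scanpy 1.11.5 and leidenalg 0.10.2 (2000 variable genes without the rule's genes, 30 components, 15 neighbours, resolution 1); doublets were marked, not removed. Named genes were the 15 highest and 10 lowest against other epiblast-like nuclei and the 8 highest against all others, a higher gene only with a UMI in 40 members and without clone-named genes; of the peaks, the 6 highest and 6 lowest. A few genes that this rule takes are not reported here. Python 3.11.15, NumPy 2.4.6, SciPy 1.17.1 and pandas 2.3.3 were used, and the scripts were tested on simulated data.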

Additional observations from a re-analysis of the deposited data

How the results depend on the processing

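No paired analysis was possible because each assay has 1 library, no test was made, and the labels give no replicate numbers. Comparisons were repeated with other numbers of members, scores, comparators, filters, thresholds and scalings; those restricted to epiblast-like clusters or to RNA cluster 0 were chosen after seeing the data. There is 1 library per assay, 38 members lie outside epiblast-like clusters, and few UMIs per gene and nucleus leave low genes with wide intervals. Against all other barcodes, the counts of higher and lower genes became 4378 and 9692 with no filter on low genes and 622 and 1267 at a 2-fold threshold. Against the other epiblast-like nuclei they became 3394 and 3881 with no filter and 42 and 52 at 2-fold; the count of higher genes was 192 for the 400 highest scores, 119 of them shared with the 327, and 647 for the 1600 highest, 190 of them shared. Of all genes past 1.5-fold there, 53.3% were higher, 64.4% with the 1600 highest scores and 43.4% with the 762 members in epiblast-like clusters. Scaling without the 50 highest genes gave 51.6%. Slco4c1 was at 0.829-fold with the 400 highest scores. With the 762 members 8 of the 15 highest genes turned below 1, among them Abcc2 0.855, Prdm6 0.996, Sfmbt2 0.993, Cubn 0.909, Gata4 0.894, Myo5b 0.872 and Slco4c1 0.988. Within RNA cluster 0, Bmp6 was at 0.843, Abcc2 at 0.644, Prdm6 at 0.917, Sfmbt2 at 0.970, Cubn at 0.8025, Gata4 at 0.769, Myo5b at 0.721, Slco4c1 at 0.864 and Wnt8a at 1.04. There, each gene in nuclei chosen by the 5 others was at 1.27 (Nxph1), 1.41 (Kcnh8), 1.31 (Slc35d3), 1.45 (Hs3st5), 1.11 (Grin2b) and 1.27 (Nalcn). The Kcnh8 promoter was at 2.45-fold over all other barcodes with a 2000 bp window, which takes in a further peak. Peaks higher than in all other barcodes were 3684 at 2-fold and 4295 with 50 expected fragments, and 4725 were lower with 50; against other epiblast-like nuclei 134 were higher and 502 lower at 2-fold, and 157 and 329 with 50. Thinning to 3000 UMIs gave shares of members and of other epiblast-like nuclei with a UMI of 20.4% and 3.0% for Nxph1, 50.5% and 15.8% for Kcnh8, 25.4% and 8.28% for Slc35d3, 47.4% and 16.1% for Hs3st5, 24.4% and 7.91% for Grin2b, and 23.0% and 6.69% for Nalcn. The cause of these moves was not tested. Choosing the members on thinned UMIs kept 533 of them (66.6%), and leaving out the condition on T and Mixl1 kept 650.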

Other observations

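The pool held nuclei of both sexes. Of the members, 21.8% (18.9 to 24.8) had a UMI of Xist, the RNA of X inactivation, and none of the Y genes Ddx3y, Uty, Eif2s3y and Kdm5d, and 58.6% (55.1 to 62.1) had a UMI of a Y gene and none of Xist. Of the other epiblast-like nuclei, 27.5% (25.5 to 29.6) and 56.0% (53.8 to 58.3) were in these classes. The share with Xist alone was thus lower in members by more than counting error. Nuclei with UMIs of both were 18.5% of members and 14.5% of other epiblast-like nuclei. The median UMI count was 11058.5 in the former and 9895 in the latter. The share with Xist alone among the 762 members in epiblast-like clusters was 22.2% (19.3 to 25.3) and the share with a Y gene alone 59.8%. Xist RNA in sum was level between members and other epiblast-like nuclei, at 1.0-fold, while the 4 Y genes were at 1.13-fold (Eif2s3y) to 1.29-fold (Uty). Embryos in the pool cannot be told apart.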
